A study of Mus musculus with 2 samples.

Results

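The mitochondrial genome of the mouse was described gene by gene in 2 libraries of total RNA from an erythroid cell line. Its genes were taken by position, as every gene that GENCODE M21 places on chromosome M of GRCm38, and all carry symbols that begin with mt-. The rule gave 37 genes of the 43346 Ensembl genes in the deposited tables: 13 mRNAs, 2 ribosomal RNAs (rRNAs) and 22 transfer RNAs (tRNAs). The cells were G1E-ER4, an immortalised mouse erythroid line labelled as male and of strain C57BL/6J, which lacks its own Gata1, a transcription factor that red cell maturation needs, and carries a restored Gata1 that acts when estradiol is present. Both cultures had been kept with 17beta-estradiol at 10 nM for 24 h and are numbered in the labels as biological replicates 1 and 2. They form 1 group, and no untreated culture was analysed here, so the values are levels in each library and differences from culture to culture, and no effect of estradiol was tested.

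The mitochondrial genome is a small circle, copied and transcribed inside the organelle by enzymes encoded in the nucleus. Each strand is transcribed as a long RNA, and the tRNAs that lie between most mRNAs and rRNAs are cut out, which frees the RNAs on either side. Its mRNAs encode membrane subunits of the respiratory complexes, which are built together with nuclear subunits and, in erythroid cells, work in the organelle that also carries out the last steps of haem synthesis.

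Total expected counts, which are reads shared out among genes and need not be whole, were 62080996 in replicate 1 and 41051158 in replicate 2. A chi-square statistic of 75.8 per degree of freedom over 12223 genes left them as separate libraries. The mean fragment length implied by the deposited effective lengths was 204 bases in replicate 1 and 220 in replicate 2. The cell label was checked on markers: 8 of 8 erythroid genes reached 1 TPM (a share of the library in which each gene is scaled by its effective length) in both libraries, against 1 of 9 markers of other blood cells, Itga2b, at 2.04 and 1.70 TPM.

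Several of the mRNAs have near-identical annotated copies in the nucleus, and values of these genes depend on how reads were shared with the copy. A search of GENCODE M21 transcripts found 11 genes outside chromosome M that match the mitochondrial genome at 95% identity or more over at least 80% of their length, all annotated as pseudogenes. Of these, 7 lie side by side on the minus strand of chromosome 1, between chr1:24611535-24616197, in the order Gm28439, Gm10222, Gm28438, Gm28437, Gm10925, Gm28661 and Gm29216. They copy mt-Nd4, mt-Nd4l, mt-Nd3, mt-Co3, mt-Atp6, mt-Co2 and the end of mt-Co1. A group of 3 on chromosome 2 and 1 gene on chromosome 13 have more differences. mt-Nd1, mt-Nd6, mt-Cytb, mt-Atp8 and both rRNAs had no copy by this rule. Copies without an annotated transcript could not be found by this search.

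The following stretches, read from the GENCODE M21 transcripts (GRCm38), show how little there is to tell a read of the gene from a read of its copy. For mt-Nd3 (chrM:9459-9518, plus strand) and Gm28438 (chr1:24613060-24613119, minus strand) the capital marks the only difference over the 345 bases of the copy, T3C, counted from 1 at the 5′ end of the mitochondrial gene with its base given before that of the copy.
mt-Nd3: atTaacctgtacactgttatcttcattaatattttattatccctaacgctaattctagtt
Gm28438: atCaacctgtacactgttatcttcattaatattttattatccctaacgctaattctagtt

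The copies of mt-Co3, mt-Co2 and mt-Atp6 are identical to the gene along their whole length, 783, 681 and 678 bases, and end just before it does. Capitals mark the bases at the 3′ end of the gene that the annotated copy lacks: the last base of mt-Co3 (chrM:9361-9390 against chr1:24613189-24613217) and the TAA stop codons of mt-Co2 (chrM:7667-7696 against chr1:24614885-24614911) and mt-Atp6 (chrM:8578-8607 against chr1:24613974-24614000).
mt-Co3: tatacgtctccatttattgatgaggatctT
Gm28437: tatacgtctccatttattgatgaggatct
mt-Co2: ttcgaaaactgatctgcttcaataattTAA
Gm28661: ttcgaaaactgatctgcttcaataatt
mt-Atp6: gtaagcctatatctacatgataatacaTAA
Gm10925: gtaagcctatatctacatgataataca

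mt-Co1, the gene with the most reads of the 37, is copied only in part on chromosome 1: Gm29216 covers bases 1063 to 1545 of the gene and has 9 further bases that do not belong to it. Over the shared 483 bases the only difference is A1066T, which the capital marks near the start of the shared stretch (chrM:6390-6449, plus strand, against chr1:24616129-24616188, minus strand).
mt-Co1: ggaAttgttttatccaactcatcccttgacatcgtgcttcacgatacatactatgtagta
Gm29216: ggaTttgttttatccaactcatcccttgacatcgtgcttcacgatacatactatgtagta

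The 37 genes together held 1.71% of expected counts in replicate 1 and 1.47% in replicate 2 (1.59 ± 0.167%, SD, n = 2). The Wilson 95% intervals, which cover counting error only, ran from 1.702% to 1.709% and from 1.466% to 1.473%, so the libraries differed by more than counting error. In bulk RNA, fewer cells that carry an RNA and less of it per cell cannot be told apart. The mRNAs held 1.55% and 1.35% of counts (1.45 ± 0.141%, n = 2), the rRNAs 0.158% and 0.121% (0.140 ± 0.0262%), and the tRNAs 0 in both libraries. The 11 nuclear copies held 0.589% and 0.537% (0.563 ± 0.0361%), which raises the mitochondrial share to 2.15 ± 0.203% where their reads are added. Of the reads on the 37 genes, mt-Co1 alone took 75.3% and 75.5%, and 56.0% and 55.3% of the sum that includes the copies.

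The levels of the genes spanned a wide range (the plot of TPM along the mitochondrial genome). From mt-Nd4l to mt-Co1, the lowest and the highest mRNA, deposited TPM differed 642-fold in replicate 1 and 933-fold in replicate 2. With the reads of the copies added, the lowest mRNA was mt-Nd6, and the span was 232-fold and 154-fold. All 13 mRNAs and both rRNAs reached 1 TPM in both libraries, 15 of the 37 genes, as did 36.3% of the 21461 protein-coding genes of the nucleus and 19.6% of all Ensembl genes. The median of the 13 mRNAs was 93.6 TPM, against 6.43 TPM for the nuclear protein-coding genes that reached 1 TPM.

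**Figure D1:**
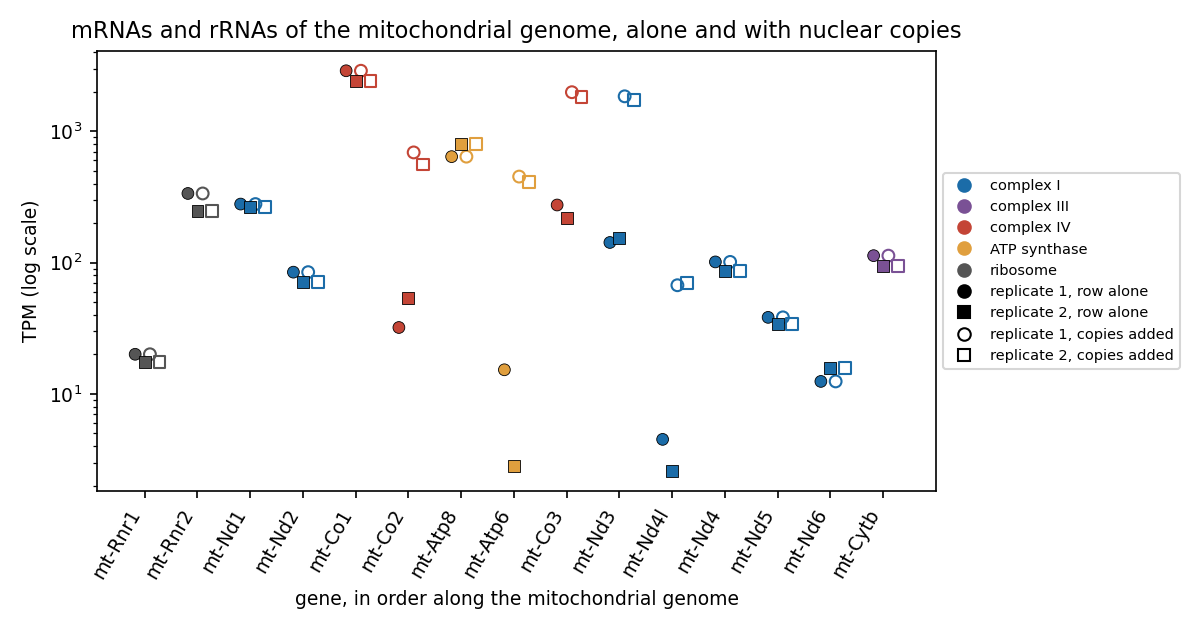
TPM on a log axis for the 13 mRNAs and 2 rRNAs in the order of their genes, with circles for replicate 1 and squares for replicate 2, filled for the gene alone and open with the reads of its nuclear copies added, coloured by complex. mt-Co1 lies at 2894 and 2416 TPM either way, while mt-Nd3 moves from 142.5 and 154 TPM to 1849 and 1724 TPM and mt-Atp6 from 15.3 and 2.84 TPM to 453 and 411 TPM.

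Among the 3 mRNAs of complex IV, cytochrome c oxidase, mt-Co1 encodes the catalytic subunit that holds the site where oxygen is reduced. Its gene (chrM:5328-6872, plus strand) stood at 2894 TPM in replicate 1 and 2416 in replicate 2 (2655 ± 338 TPM, n = 2), from 797113 and 455652 expected counts. It ranked 5th by count among all genes in both libraries, and 0 nuclear protein-coding genes had a higher mean TPM. Few of its reads were placed on a copy: the gene held 99.98% and 99.99% of the reads of itself and its copies Gm29216 and Gm13340.

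mt-Co2, whose product takes electrons from cytochrome c, was listed at 32.1 and 53.5 TPM (42.8 ± 15.1 TPM, n = 2), from 3169 and 3535 counts. Its copy Gm28661 held 65086 and 33498 counts, so that only 4.64% and 9.54% of the reads of the gene and its copies were placed on the gene. mt-Co3, the subunit of the core that carries no redox centre, was listed at 275 and 219 TPM (247 ± 39.9 TPM, n = 2). Of its reads and those of Gm28437, 237027 and 147360 in sum, 13.8% and 11.9% were placed on the gene. As deposited, mt-Co1 exceeded mt-Co2 by 6.00 ± 0.71 and mt-Co3 by 3.43 ± 0.05 in log2 ratio, both larger than the spread of the replicates. With the copies added the same ratios were 2.09 ± 0.03 and 0.47 ± 0.10, which is 4.19-fold and 4.31-fold over mt-Co2 and 1.46-fold and 1.32-fold over mt-Co3. The 3 mRNAs of the complex then spanned the same 4.19-fold and 4.31-fold, in place of 90.2-fold and 45.2-fold.

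Complex I, the NADH dehydrogenase, has 7 mitochondrial mRNAs, all for subunits of its membrane arm. mt-Nd1 (chrM:2751-3707), next to the site where ubiquinone binds, was the highest of those without an annotated nuclear copy, at 279 and 264 TPM (272 ± 10.7 TPM, n = 2). The 3 mRNAs for the proton-pumping subunits that resemble antiporters were lower. mt-Nd4 stood at 101 and 86.0 TPM (93.6 ± 10.9), mt-Nd2 at 84.7 and 71.2 (77.9 ± 9.53) and mt-Nd5 at 38.3 and 33.9 (36.1 ± 3.10). Within each library mt-Nd1 exceeded mt-Nd2 by 1.81 ± 0.12 and mt-Nd5 by 2.91 ± 0.07 in log2 ratio, and mt-Nd4 exceeded mt-Nd5 by 1.37 ± 0.04, each beyond the spread of the replicates. The copy of mt-Nd4, Gm28439, is identical to the first 876 of its 1378 bases, yet was listed at 0 counts in both libraries, and 100% of the reads were placed on the gene. The copies of mt-Nd2 and mt-Nd5, which have more differences, were also at 0 counts.

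For the small complex I subunits mt-Nd3 and mt-Nd4l most of the reads were placed on a copy. mt-Nd3 was listed at 142.5 and 154 TPM (148 ± 8.46 TPM, n = 2) and Gm28438 at 1740 and 1603 TPM, with 7.71% and 8.96% of their joint reads on the gene. These genes differ at the single base printed above, T3C, apart from the last 3 bases of the gene, which the copy lacks. mt-Nd4l was listed at 4.51 and 2.59 TPM (3.55 ± 1.36 TPM, n = 2), from only 92.9 and 32 counts, against 1294 and 839 counts on Gm10222, which is identical to the first 294 of its 297 bases. Added together, mt-Nd3 came to 1849 and 1724 TPM and mt-Nd4l to 67.3 and 70.4 TPM. mt-Nd4 and mt-Nd4l lie on a shared mRNA in mammalian mitochondria and overlap here by 7 bases. Their log2 ratio was 4.77 ± 0.40 as deposited and 0.44 ± 0.21 with the copies added, higher for mt-Nd4 in both libraries either way.

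mt-Cytb, for the cytochrome b of complex III and its only mitochondrial subunit, had no annotated copy by the rule. It stood at 113 and 94.3 TPM (104 ± 13.3 TPM, n = 2, chrM:14145-15288). It exceeded mt-Nd5 by 1.52 ± 0.06 in log2 ratio.

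ATP synthase has 2 mitochondrial mRNAs. mt-Atp8 and mt-Atp6, subunits of its membrane part, are read from the same mRNA in overlapping frames, and their genes share 43 bases (chrM:7927-7969). The stretch below (chrM:7897-7999, plus strand) shows the overlap in capitals: it opens with the ATG of mt-Atp6 and closes with the last bases of mt-Atp8.
mt-Atp8/mt-Atp6: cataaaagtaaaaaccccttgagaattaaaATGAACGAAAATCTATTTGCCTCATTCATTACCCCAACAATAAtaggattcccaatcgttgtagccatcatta

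The mt-Atp8 gene was listed at 642 and 801 TPM (722 ± 113 TPM, n = 2), the highest of the 37 after mt-Co1, from 3811 and 2476 counts. That level rests on its effective length, the number of positions at which a fragment could start, which was 28.9 and 21.7 bases of the 204 annotated. Per annotated length the gene had 301 and 296 CPM per kilobase (CPM being the count scaled to the library total) and ranked 5th of the 15 genes with reads, or 8th with the copies added. Deposited TPM was higher in replicate 2, whereas CPM per kilobase was slightly higher in replicate 1. The mean fragment length and with it the effective length differ between the libraries, and their part in this was not tested.

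mt-Atp6 was listed at 15.3 and 2.84 TPM (9.06 ± 8.80 TPM, n = 2), from 1499 and 186 counts, while its copy Gm10925 held 42910 and 26810 counts. Thus 3.38% of the joint reads were placed on the gene in replicate 1 and 0.690% in replicate 2. As deposited, mt-Atp6 lay below mt-Atp8, with a log2 ratio of -6.77 ± 1.94 (42.0-fold and 282-fold lower). With the copies added it was -0.73 ± 0.32 (1.42-fold and 1.95-fold lower). No annotated copy of mt-Atp8 was found, so reads were added to mt-Atp6 only. Per annotated length with the copies added, the order was the reverse. mt-Atp6 then had 1050 and 966 CPM per kilobase, against 301 and 296 for mt-Atp8.

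**Figure D2:**
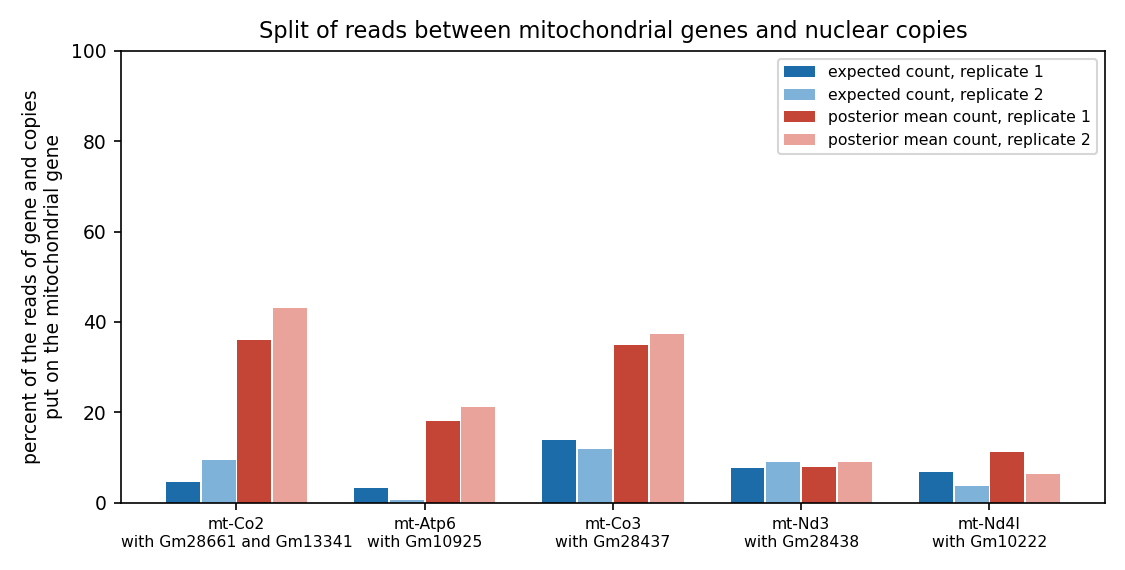
Percent of the reads of gene and nuclear copies that were placed on the mitochondrial gene, for mt-Co2, mt-Atp6, mt-Co3, mt-Nd3 and mt-Nd4l, by expected count (blue) and by posterior mean count (red), with replicate 1 dark and replicate 2 light. By expected count none of these 5 genes passes 13.8%, and by posterior mean count mt-Co2 reaches 36.1% and 43.1%, while mt-Nd3 stays at 7.87% and 9.06%.

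How firmly the reads were placed can be read from a further set of columns in the same tables, the posterior means with their SDs and credible bounds. The posterior mean TPM of mt-Co2 was 248 and 240, above its deposited 32.1 and 53.5, within bounds of 68.5 to 513 and 113 to 439. mt-Atp6 had a posterior mean of 81.3 and 86.0 TPM with bounds of 14.3 to 221 and 3.12 to 352. For mt-Co3 it was 690 and 679 TPM, with bounds of 181 to 1492 and 151 to 1504. The replicates thus lay closer together by posterior mean than by deposited TPM in these 3 genes, which stand at 244 ± 6.13, 83.6 ± 3.31 and 685 ± 8.10 TPM (n = 2).

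The posterior SD exceeded 10% of the posterior mean count in 4 of the 14 genes with at least 100 counts in the library concerned, mt-Co2, mt-Atp6, mt-Co3 and mt-Nd3, in each library. Over all genes with that many counts the shares were 0.834% and 0.839%. A posterior mean at least 1.5-fold from the expected count was found for mt-Co2, mt-Atp6 and mt-Co3 in both libraries, 3 of 14, against 0.131% and 0.115% of all genes. Deposited TPM fell outside its own bounds for 2 of 14 genes in replicate 1 (mt-Co1 and mt-Co2) and 3 of 14 in replicate 2 (these and mt-Atp6), against 0.914% and 1.22% of all genes. For mt-Co1 the gap was small, 2894 TPM against an upper bound of 2885 in replicate 1. The genes without a near-identical annotated copy, such as mt-Nd1, mt-Nd5, mt-Cytb and the rRNAs, had a posterior SD of 0.

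**Figure D3:**
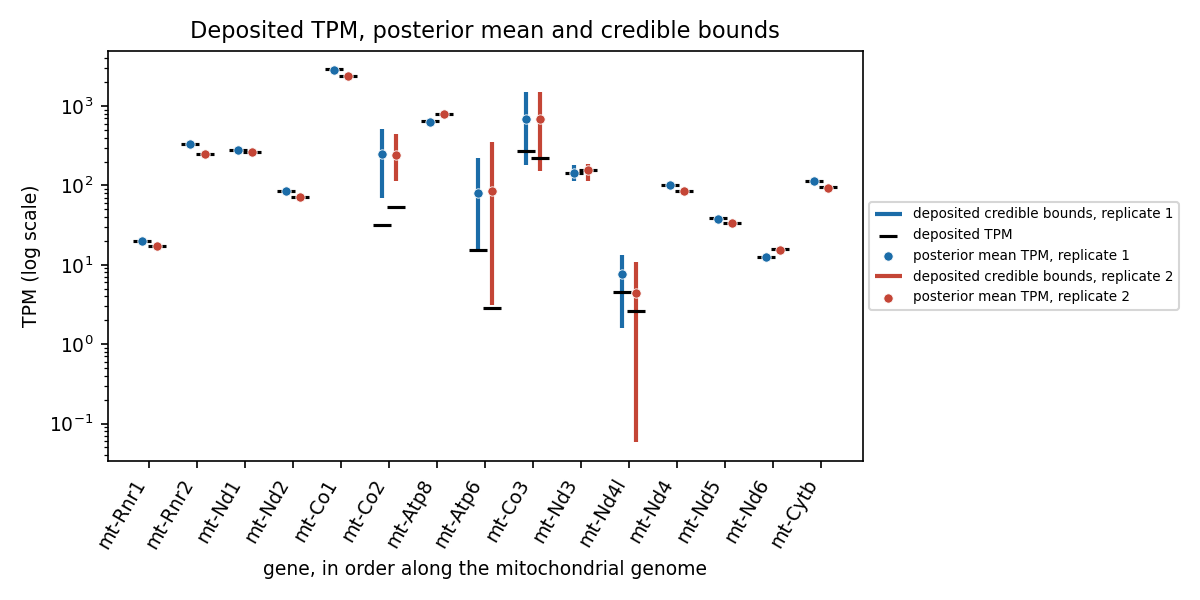
Deposited TPM (black dashes), posterior mean TPM (points) and credible bounds (vertical lines) on a log axis for each gene, with replicate 1 in blue and replicate 2 in red. Bounds are wide for mt-Co2, mt-Atp6, mt-Co3 and mt-Nd4l, and the deposited TPM of mt-Co2, 32.1 and 53.5, lies under its lower bounds of 68.5 and 113.

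For 9 of 9 genes with a copy, the expected counts of the gene and its copies summed to a whole number in both libraries, within 0.02, whereas the gene alone was whole in both for 3 of 9. The sums were 44409 and 26996 for mt-Atp6, 68268 and 37039 for mt-Co2 and 56041 and 32544 for mt-Nd3. Those 3 were mt-Nd2, mt-Nd4 and mt-Nd5, whose copies held 0 counts, so that their sums were the counts of the genes and show nothing further. For the other genes the sum was a whole number of reads, while the gene alone was not in at least 1 library. Their sums did not depend on how reads were divided.

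Neighbours in the order of levels were compared within each library and called different where the log2 ratio had the same sign in both and a mean above its SD. By deposited TPM, 9 of 14 neighbouring steps passed. The order ran from mt-Co1 through mt-Atp8, mt-Rnr2, mt-Nd1, mt-Co3, mt-Nd3, mt-Cytb, mt-Nd4, mt-Nd2, mt-Co2, mt-Nd5, mt-Rnr1, mt-Nd6 and mt-Atp6 to mt-Nd4l. The steps within the spread of the replicates were those from mt-Rnr2 to mt-Nd1, from mt-Nd1 to mt-Co3, from mt-Co2 to mt-Nd5, from mt-Nd6 to mt-Atp6 and from mt-Atp6 to mt-Nd4l. With the copies added, 11 of 14 steps passed, and mt-Co3 and mt-Nd3 stood directly below mt-Co1, followed by mt-Atp8 and mt-Co2, which could not be ordered, then mt-Atp6. The log2 step from mt-Co3 to mt-Nd3 was then 0.10 ± 0.01, small but in the same direction in both libraries. Per annotated length it was wider, at 4870 and 4579 CPM per kilobase for mt-Co3 against 2594 and 2278 for mt-Nd3. On that scale mt-Atp6 ranked 5th and mt-Atp8 8th. The foot of the order with the copies added held mt-Nd5, mt-Rnr1 and mt-Nd6 by TPM, and mt-Nd4l, mt-Rnr1 and mt-Nd6 per annotated length.

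The 2 rRNAs differed from each other. mt-Rnr2, the RNA of the large mitochondrial ribosomal subunit (chrM:1094-2675), was at 337 and 248 TPM (292 ± 62.9 TPM, n = 2), and mt-Rnr1, that of the small subunit (chrM:70-1024), at 20.1 and 17.4 TPM (18.7 ± 1.88 TPM, n = 2). Their log2 ratio was 3.95 ± 0.17, or 16.8-fold and 14.2-fold higher for mt-Rnr2. The mRNA of mt-Co1 exceeded mt-Rnr2 by 3.20 ± 0.13 in log2 ratio. RNA for these libraries had been depleted of rRNA, per the labels. The sources used here do not say whether the depletion removed mitochondrial rRNA, so the levels of these 2 genes are what was left after it.

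The tRNAs had no reads at all: 22 of 22 were listed at 0 counts with an effective length of 0 in both libraries. A count of 0 allows up to 3 counts, or 4.83e-06% and 7.31e-06% of a library. The shortest and the longest are printed to show their size against the fragments, whose labelled size range was 200 to 1000.
mt-Ts2: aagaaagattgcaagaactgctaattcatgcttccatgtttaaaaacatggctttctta
mt-Tl1: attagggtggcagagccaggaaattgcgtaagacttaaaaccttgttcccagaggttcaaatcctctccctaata

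mt-Ts2, a serine tRNA of 59 bases (chrM:11613-11671), and mt-Tl1, a leucine tRNA of 75 (chrM:2676-2750), lie on the plus strand, both as listed in the GENCODE M21 transcripts of GRCm38. Of the 726 annotated genes of 59 to 75 bases, 0 had a read in either library, and the shortest genes with reads were 77 and 79 bases long. The zeros of the tRNAs are shared by every gene of their length, so they set no limit on the amount of tRNA in the cells.

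By strand, the annotation's plus strand carries 12 mRNAs, both rRNAs and 14 tRNAs, the RNAs transcribed from the heavy strand. Its minus strand carries those transcribed from the light strand, mt-Nd6 and 8 tRNAs. mt-Nd6, a membrane subunit of complex I (chrM:13552-14070), stood at 12.5 and 15.7 TPM (14.1 ± 2.28 TPM, n = 2), from 809 and 669 counts, which are 0.0764% and 0.111% of the reads on the 37 genes. The median of the 12 plus-strand mRNAs was 107 and 90.1 TPM, 8.60-fold and 5.75-fold higher (log2 ratio 2.81 ± 0.41). Each of 10 of the 12 exceeded mt-Nd6 in both libraries, the exceptions being mt-Atp6 and mt-Nd4l; with the copies added 12 of 12 did, and the log2 ratio was 4.65 ± 0.32. mt-Nd5, on the opposite strand, overlaps mt-Nd6 by 14 bases and exceeded it by 1.37 ± 0.36 in log2 ratio. mt-Cytb exceeded it by 2.88 ± 0.42. The sources used here do not say whether counting used strand, so reads of mt-Nd6 and antisense reads of the plus-strand RNA cannot be told apart.

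Between the replicates, most of the genes with reads differed little. After scaling, 1 of the 14 genes that averaged 100 counts or more differed at least 2-fold, against 2.05% of all 9777 such genes. This was mt-Atp6, 5.43-fold higher in replicate 1, a direction in which 0.481% of all genes passed; 0 of 14 passed in the other direction, against 1.56%. By posterior mean counts, 0 of 15 genes passed, against 2% of all genes. With the copies added, 0 of 15 passed, against 2.04%, and the log2 ratio of mt-Atp6 moved from -2.44 to -0.15. mt-Co2 went the other way, with a log2 ratio of replicate 2 to replicate 1 of 0.72 alone and -0.32 with its copies. mt-Nd4l stood at -0.96 alone, on a mean of only 62.5 counts, and at -0.11 with its copy.

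Of the 14 genes tested, 12 had a log2 ratio below 0, or 11 where libraries were scaled by total counts alone and mt-Nd3 lay at 0.03. The median was -0.21, against -0.01 for all genes. Among those without a near-identical annotated copy the values ran from -0.42 for mt-Rnr2 to 0.29 for mt-Nd6, which was higher in replicate 2. With 2 libraries this is a difference between cultures that no test can weigh.

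**Figure D4:**
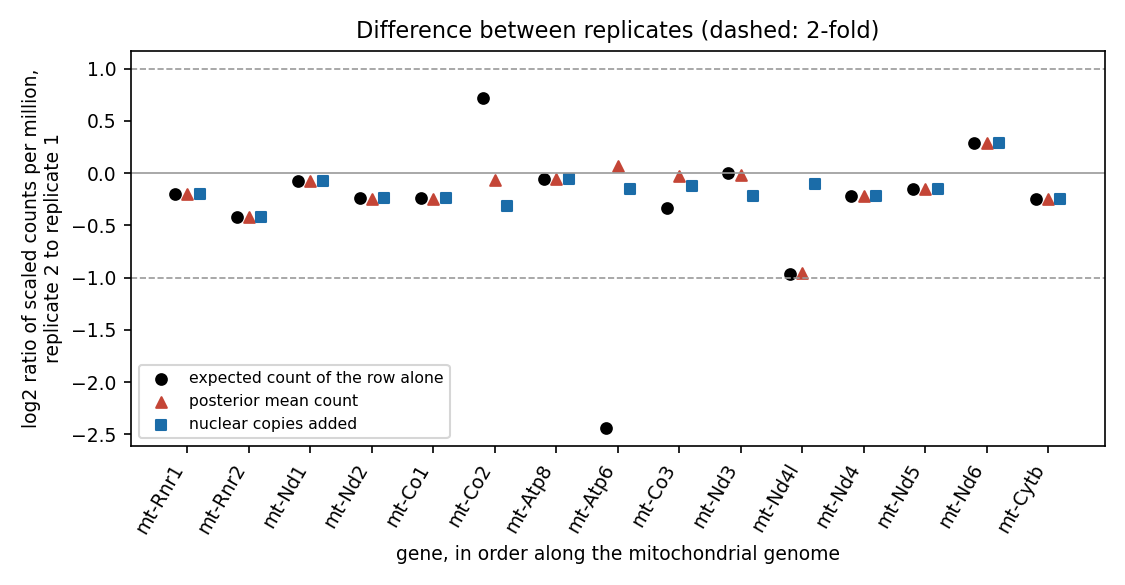
Log2 ratio of TMM-scaled CPM, replicate 2 to replicate 1, for each gene by expected count (black), posterior mean count (red) and with the reads of nuclear copies added (blue), with dashed lines at 2-fold. mt-Atp6 lies at -2.44 by its own expected count and at -0.15 with its copy, and with copies added only mt-Nd6, at 0.29, lies above 0.

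Nuclear subunits of the same complexes gave a scale for these levels. The partners are those of the lists chosen for each complex and not all of its nuclear subunits. In complex IV, mt-Co1 exceeded Cox4i1, a nuclear subunit, by 4.63 ± 0.22 in log2 ratio, 27.5-fold and 22.2-fold. The highest of 9 nuclear partners, Cox6b1, stood at 233 and 283 TPM (258 ± 34.9 TPM, n = 2), and the partners had a median of 105 and 109 TPM. With the copies added, 3 of 3 mitochondrial mRNAs of the complex exceeded every listed nuclear partner in both libraries. Without them mt-Co1 did so in both libraries, mt-Co3 in replicate 1 only and mt-Co2 in neither.

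In complex I the mitochondrial median was 84.7 and 71.2 TPM and that of 9 nuclear partners 22.1 and 30.9 TPM. The highest partner, Ndufb10, a subunit of the membrane arm, stood at 92.0 and 77.0 TPM, and 3 of the 7 mitochondrial mRNAs exceeded it in both libraries. In complex III, mt-Cytb exceeded Uqcrc1, a large matrix-facing subunit, by 2.16 ± 0.34 in log2 ratio, but lay below Uqcrb, a small nuclear subunit at 328 and 273 TPM. In ATP synthase the pair of mt-Atp6 and Atp5a1, the catalytic-head subunit alpha, turned direction with the treatment of the copies. As deposited mt-Atp6 was lower, with a log2 ratio of -3.87 ± 1.82, and with Gm10925 added it was higher, by 2.16 ± 0.20. Atp5b, the highest nuclear partner at 430 and 549 TPM, was exceeded by mt-Atp8 in both libraries. That order rests on the effective length of mt-Atp8, 28.9 and 21.7 bases. In counts mt-Atp8 had 3811 and 2476, against 58004 and 47532 for Atp5b. In all, 17 of 17 ratios chosen for the comparison, 13 between mitochondrial genes and 4 with a nuclear partner, passed the rule in deposited TPM. The rule asks only for the same sign and a mean above the SD. How often other gene pairs pass it was not computed, so the count marks nothing particular to these genes.

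**Figure D5:**
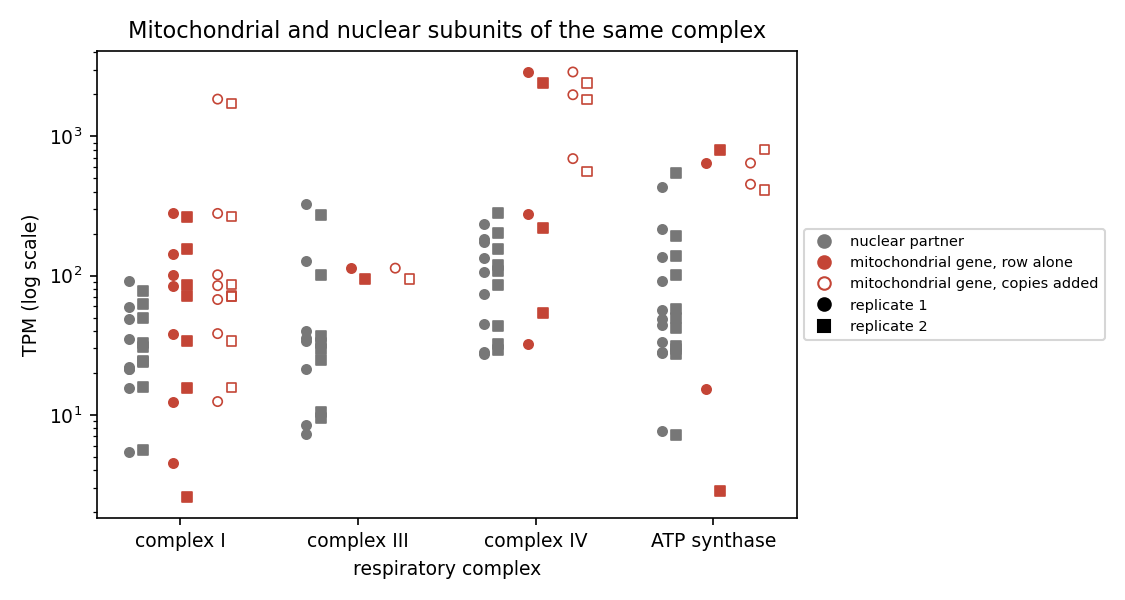
TPM on a log axis of listed nuclear partners (grey), mitochondrial genes alone (filled red) and mitochondrial genes with the reads of their copies added (open red) in 4 respiratory complexes, with circles for replicate 1 and squares for replicate 2. In complex IV the 3 open points of each library lie above the highest grey point, 233 TPM in replicate 1 and 283 TPM in replicate 2.

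Nuclear genes that copy, transcribe and process the mitochondrial genome were measured from 5 lists. For scale, 36.3% of all nuclear protein-coding genes reached 1 TPM in both libraries. Of the transcription factors and the polymerase, 10 of 10 matched genes did so, with a median of 2.58 TPM. Mterf3 and Mterf4, of the family named for transcription termination, stood at 12.7 ± 1.09 and 8.24 ± 0.297 TPM and Tfam, which packages the genome and starts transcription, at 5.52 ± 0.905 TPM (n = 2). Of the genes for replication and packaging, 9 of 11 reached 1 TPM, with a median of 1.90 TPM. Rescaling over nuclear protein-coding genes alone multiplied the TPM of every gene by 7.09 in replicate 1 and 6.95 in replicate 2. On that scale 11 of 11 reached 1 TPM, and the share of all genes that did was not computed. Polg, the catalytic subunit of the mitochondrial DNA polymerase, stood apart at 66.2 and 54.6 TPM (60.4 ± 8.17 TPM), while Top1mt, the mitochondrial topoisomerase, was at 0.515 ± 0.00707 TPM.

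Of the genes that cut and process the long primary RNAs, 11 of 12 reached 1 TPM (median 4.94 TPM). Grsf1, an RNA-binding protein of the mitochondrial RNA granules, was highest at 29.0 ± 1.87 TPM, and Fastkd1 lowest at 0.790 ± 0.0707 TPM. The list for stability, polyadenylation and decay had 8 of 8, with a median of 6.16 TPM. Its highest genes were Rexo2, which degrades short RNA, at 61.7 ± 2.30 TPM and the partners Lrpprc and Slirp, which bind and stabilise mitochondrial mRNA, at 26.7 ± 0.516 and 26.5 ± 0.735 TPM. Of the genes that modify tRNA and rRNA 22 of 24 reached 1 TPM, led by Trnt1, which adds the CCA end of tRNAs, at 17.4 ± 0.806 TPM. Of the 102 genes measured in these lists and in the lists of nuclear partners, each averaging 100 counts or more, 0 differed 2-fold or more between the replicates, against 2.05% of all genes tested. In deposited TPM 97 of the 102 reached 1 TPM in both libraries, against 36.3% of all nuclear protein-coding genes. All 102 did where TPM was rescaled over nuclear protein-coding genes, which raises every gene of a library alike.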

How the data were processed

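Total RNA was measured in 2 libraries of 1 group, made from 100 ng of RNA depleted of rRNA with the ScriptSeq kit, per the labels. The gene counts are expected counts, per the file headers. TPM and FPKM were deposited beside them by the authors, with effective lengths, posterior means, posterior SDs and credible bounds of unstated level. The text lists that came with the tables name mm10 as the assembly and GENCODE M4 as the annotation. The program and the aligner, and any use of strand, are not given in the sources used here.

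Gene identifiers without version were joined to GENCODE M21 on the same assembly: 42462 of 43346 Ensembl entries matched, all 37 mitochondrial genes among them, and the 884 others held at most 0.145% of counts. Entries that name no gene, 26248 in number, held at most 2.9e-05% and were left out. The design asked for nuclear copies from a genome. None was used, and BLAST 2.17.0 searched 141730 GENCODE M21 transcripts against a mitochondrial sequence rebuilt from its 37 transcripts (15422 bases, 57 without a transcript). Where copies were added, their counts were summed with those of the gene and divided by the effective length of the gene.

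A log2 ratio within libraries was called where both had the same sign and the mean exceeded the SD. No p is given, since an exact two-sided test that flips signs cannot go below 0.5 with 2 libraries. A replicate difference was called at 2-fold or more in CPM scaled by TMM factors (edgeR 4.0.16 in R 4.3.3, computed after rounding expected counts to whole numbers), where the average was 100 counts or more  and with a prior count of 0.5. DESeq2 1.42.0 gave size factors as an alternative. The calls and the search were checked on simulated data with known answers. Replicates are numbered as biological in the labels. Reads were not tied to single molecules by identifiers, so intervals and floors cover counting error only.

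The text names all 37 genes, the genes of 17 ratios, from each of 9 lists the 4 genes of highest mean TPM and as many as 2 with a mean under 1 TPM, and the 4 nuclear copies with the highest counts; the other copies, and Itga2b among the markers, were named after their values were seen. The genes and lists were chosen with earlier results of these data known. Mtres1, Prorp and Fastkd4 were unmatched and are not analysed here. Values of 1 ratio that this rule takes are not reported here.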

Additional observations from a re-analysis of the deposited data

How the results depend on the processing

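No paired analysis was possible because the libraries form 1 group. Adding the reads of nuclear copies to single levels, ratios and replicate differences, and using posterior mean counts for replicate differences and shares, were chosen after seeing the data. As a share of TPM, the mRNAs held 0.442%, the rRNAs 0.0311% and all 37 genes 0.474%. In expected counts, as a percent of those on nuclear protein-coding genes alone, the values were 1.83%, 0.177% and 2.01%. With the copies added the mRNAs held 2.01% and all 37 genes 2.15% of all expected counts. Replicate differences over all genes numbered 984 at a mean count of at least 10 and 8490 with no filter on low counts, and mt-Atp6 was called in both. Of the mitochondrial genes, 0 were called by posterior mean counts and 0 with the copies added. The stricter search, 98% identity over 90%, kept 7 copies; by posterior mean counts the copies held 0.433% of reads. The ratio of mt-Atp6 to Atp5a1 turned to 2.16 with the copies added. Relative to the median mRNA (log2), mt-Co2 turned from below to above it, to 1.25 by posterior mean TPM and 1.20 with the copies added, and mt-Atp6 to 0.67 with the copies added. mt-Cytb turned to -1.40 with the copies added, as the median itself rose. mt-Nd3 moved to -0.086 ± 0.12 per annotated length, within the spread of the replicates, and was itself the median in replicate 2. Over all alternatives, with either replicate left out among them, 118 values of single ratios were listed as unchanged in direction and 1 turned. Their size could still change greatly. With the copies added, mt-Nd4 over mt-Nd4l went from 4.77 to 0.44 and mt-Atp6 over mt-Atp8 from -6.77 to -0.73. Leaving out a replicate could not turn a ratio, since every called ratio had the same sign in both, and 1 library gives no call. Of the levels relative to the median mRNA, 80 values were also listed as unchanged in direction. In the sign of the mean 5 turned, while 3 fell within the spread and 3 moved beyond it. The 3 that moved beyond it were all mt-Nd4, itself the median in deposited TPM. Among those that fell within it, mt-Cytb by posterior mean TPM and mt-Nd1 with the copies added became the median. FPKM and TPM rescaled over nuclear protein-coding genes could not shift these levels, since each scales all genes of a library alike. Depth limits mt-Nd4l, with a mean of 62.5 counts, and length limits the tRNAs, whose effective length was 0.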
